A study of Mus musculus with 2 samples.

Results

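The 9 genes described here encode CC chemokines, small secreted proteins with paired cysteines near their amino end: Ccl2, Ccl7, Ccl8, Ccl12, Ccl3, Ccl4, Ccl6, Ccl9 and Ccl24. They were chosen by symbol and matched to 9 of the 31053 entries of the gene table. Their transcripts were counted as unique molecular identifiers (UMIs) in single cells from skin wounds of mice. CC chemokines bind G protein-coupled receptors on leukocytes and steer their movement along gradients. In wounds, macrophages and monocytes make them and also respond to them. The monocyte chemoattractants Ccl2, Ccl7 and Ccl12 signal mainly through the receptor Ccr2, which carries monocytes from marrow and blood into injured skin. Ccl3 and Ccl4 are macrophage inflammatory proteins, Ccl3 signals through Ccr1 among other receptors, and Ccl6 and Ccl9 are mouse chemokines that act on Ccr1. Ccl8 of the mouse acts on Ccr8, and Ccl24 is an eotaxin that attracts eosinophils through Ccr3.

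The diabetic group was wound monocytes and macrophages of diabetic mice, and the non-diabetic group the same population from non-diabetic mice, both taken on day 6 after injury. Each group was 1 library of cells pooled from 2 mice and released by enzymatic digestion. The labels speak of strains but name neither strain nor the diabetic model, and age, sex and any cell sort are not given in the sources used here, so strain and diabetes cannot be told apart. With 1 library per group no difference below was tested. Intervals are at the 95% level and describe the counting of UMIs alone, so they say nothing of how mice or cells vary. Barcodes entered if 500 genes or more were detected and mitochondrial UMIs made up less than 10%: 1755 of 2214 diabetic barcodes (30435047 UMIs, median 16314 per cell) and 1123 of 2026 non-diabetic barcodes (15429273 UMIs, median 14079). The libraries shared 6 deposited barcode sequences, 1 of them among the kept cells. Cells were grouped into 15 clusters without using any chemokine or chemokine receptor gene, so that the 9 members did not define them. Of these clusters, 10 drew over 90% of their cells from 1 library, where library and cell state cannot be told apart.

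Clusters are called by their leading gene, the gene with the highest fold over the other cells. Those of the diabetic library alone or nearly so were led by Stfa3 (303 diabetic and 0 non-diabetic cells), Nrg1 (296 and 5), Tmem176b (197 and 7), Acp5 (160 and 14), Lyz1 (127 and 7) and Tppp3 (125 and 7). The Cd163-led cluster, with 9 of 12 macrophage markers and called macrophage-like, held 232 diabetic and 28 non-diabetic cells. Clusters led by Osm (4 diabetic and 236 non-diabetic cells) and Inhba (2 and 205) came almost wholly from the non-diabetic library. At least 30 cells of each library were found in 4 clusters. These were a classical monocyte-like cluster with Ly6c2 and Plac8 among its leading genes (137 and 149 cells, called the Ly6c2 cluster), an interferon-led classical monocyte-like cluster led by Ifit3 (38 and 201), a conventional dendritic cell-like cluster led by Cd209a (66 and 121) and an unnamed cluster led by Lpl (48 and 101). A low-depth cluster led by Gm42418 held 4 and 42 cells, and a neutrophil-like cluster led by Retnlg held 16 and 0. The labelled monocytes and macrophages were therefore accompanied by dendritic cell-like and neutrophil-like cells. The 7 keratinocyte markers together reached 1.81 CPM (UMIs scaled to a common library total, the usual counts-per-million unit) in diabetic cells, against 0.843 CPM in non-diabetic cells.

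Summed over each library, 5 of the 9 chemokines were at least 2-fold lower in diabetic than in non-diabetic cells, namely Ccl2, Ccl4, Ccl6, Ccl9 and Ccl24. Among all 12337 genes with at least 20 UMIs over both libraries, 6.54% were lower by that much. Ccl8 was the 1 member at least 2-fold higher in diabetic cells, against 8.56% of all measured genes. The median log2 ratio, diabetic over non-diabetic, was -1.01 over the 9 members and 0.12 over all measured genes. That last value became 0.008 with edgeR TMM scaling and -0.0006 with DESeq2 size factors, so the ratios given here carry a shift of about that size. Ccl4 (log2 ratio -1.03) and Ccl6 (-1.01) lay just inside the 2-fold limit and Ccl7 (-0.81) just outside it. Without the Inhba-led cluster only Ccl24 stayed 2-fold lower or more, since Ccl2 was then at -0.76, Ccl4 at -0.68, Ccl6 at -0.80 and Ccl9 at -0.87. Fewer cells of a type and less RNA per cell cannot be told apart in such sums, which is why the clusters are described for each gene.

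**Figure D1:**
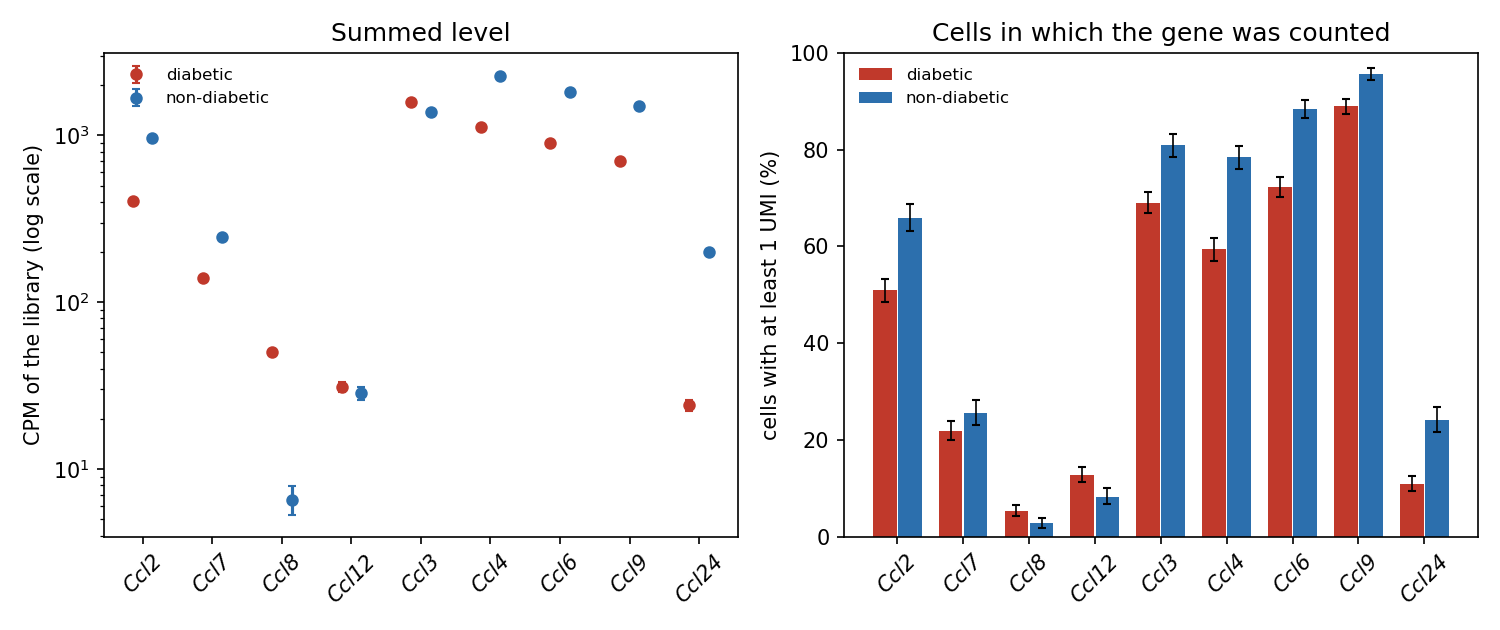
Left, summed level of each chemokine as CPM of the library (log scale) with exact Poisson intervals; right, percent of kept cells with at least 1 UMI, with Clopper-Pearson intervals; the diabetic library is red and the non-diabetic library blue. Ccl24 shows the widest gap downwards, at 24.1 CPM in diabetic and 201 CPM in non-diabetic cells, and Ccl8 the widest upwards, at 50.04 and 6.55 CPM.

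Of the 9 genes, 8 lie in a pair of groups on chromosome 11 of the mouse genome build mm10 (GRCm38), with coordinates from GENCODE M21. The monocyte chemoattractant group holds Ccl2 (chr11:82035571-82037453), Ccl7 (chr11:82045712-82047525), Ccl12 (chr11:82101845-82103400) and Ccl8 (chr11:82115185-82116799), all on the plus strand. The other group holds Ccl9 (chr11:83572919-83578636), Ccl6 (chr11:83587882-83593087) and Ccl3 (chr11:83647844-83649355) on the minus strand and Ccl4 (chr11:83662584-83664683) on the plus strand. Ccl24 lies alone on chromosome 5 (chr5:135569937-135573049, minus strand). Neighbours with no coding gene between them were Ccl2 and Ccl7 (8258 bp apart), Ccl12 and Ccl8 (11784 bp), Ccl9 and Ccl6 (9245 bp) and Ccl3 and Ccl4 (13228 bp). A transcript sequence search found no near-identical copy of 8 members at 95% identity over 100 bases. Ccl9 shared 134 bases at 97.0% identity with a transcript of Sdhaf2 and 200 bases at 88.5% with one of Pcgf5, so Ccl9 reads from those stretches are uncertain. Among members the closest over at least 200 bases were Ccl6 and Ccl9 (75.5% over 290 bases), Ccl2 and Ccl7 (72.5% over 236 bases) and Ccl8 and Ccl12 (70.2% over 339 bases). The antisense gene models Gm17268, in an intron of Ccl2, and E230016K23Rik, in an intron of Ccl6, overlap these genes, and the sources used here do not say how strand was counted.

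The sequence upstream of the start was available from RefSeq (GRCm38.p6) for 5 members, and the 4 that form neighbouring pairs are shown because the pairs differ in how closely their counts went together. Across cells the Spearman correlation of Ccl12 with Ccl8 was 0.176 in the diabetic and 0.0901 in the non-diabetic library, and that of Ccl6 with Ccl9 was 0.571 and 0.685. Of the cells with a Ccl8 UMI, 34 of 93 diabetic ones (36.6%) and 7 of 31 non-diabetic ones (22.6%) also had a Ccl12 UMI. Among all cells these shares were lower, at 12.8% of diabetic and 8.28% of non-diabetic ones. A Ccl8 UMI was present in 5.30% of diabetic cells and a Ccl6 UMI in 72.4%. Such sparse counts limit a correlation across cells, so those of the pairs are not directly comparable. Each sequence is read 5′ to 3′ on the gene's own strand and ends at the base before the start. For Ccl12 (chr11:82101705-82101844, plus) and Ccl8 (chr11:82115045-82115184, plus) capitals mark the longest run that both share within 250 bases and the TATAAA box.
Ccl12: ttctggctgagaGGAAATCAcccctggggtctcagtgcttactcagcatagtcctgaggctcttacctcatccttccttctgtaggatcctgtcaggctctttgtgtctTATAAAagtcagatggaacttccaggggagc
Ccl8: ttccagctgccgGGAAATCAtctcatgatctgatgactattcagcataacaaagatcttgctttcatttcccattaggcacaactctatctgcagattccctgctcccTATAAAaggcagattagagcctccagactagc
The shared run began 128 bases before the start in both, and TATAAA began 31 bases before the start of Ccl12 and 32 bases before that of Ccl8. The pair was identical at 94 of 151 aligned columns (62.3%). TATAAA, which also began 92 bases before the start of Ccl9 and was searched after these sequences had been seen, occurs on either strand in 12.4% of the 32851 mouse promoters of the table over the same 250 bases.

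For Ccl6 (chr11:83593088-83593187, minus) and Ccl9 (chr11:83578637-83578736, minus) capitals mark the longest run shared by the pair.
Ccl6: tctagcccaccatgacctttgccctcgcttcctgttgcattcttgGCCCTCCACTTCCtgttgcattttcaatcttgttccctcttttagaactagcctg
Ccl9: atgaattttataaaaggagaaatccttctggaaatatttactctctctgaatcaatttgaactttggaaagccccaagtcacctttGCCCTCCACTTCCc
This run of 13 bases began 55 bases before the start of Ccl6 and 14 bases before that of Ccl9. The pair was identical at 54 of 125 aligned columns (43.2%), a lower share than for Ccl12 and Ccl8. These windows were 100 bases long, against 140 for Ccl12 and Ccl8. The Ccl9 window also held 1 match to the kappaB letters (GGG, any 3 bases, TTCC), on the minus strand 35 to 26 bases before the start, and 1 to the AP-1 letters TGANTCA, 53 to 47 bases before it. These letters occur on either strand in 4.65% and 6.75% of all promoters. No match to either motif, to the interferon response letters (GAAA, any 2 bases, GAAA, in 2.98% of promoters), the STAT6 letters (TTC, any 4 bases, GAA, in 5.85%) or the E-box CACGTG (6.02%) was found within 250 bases upstream of Ccl3, Ccl6, Ccl8 or Ccl12. A match describes letters only, and a window without one says nothing about the factor.

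Ccl2, the main attractant of Ccr2-bearing monocytes, was counted at 402 CPM (interval 395 to 409) in the diabetic library and 958 CPM (943 to 974) in the non-diabetic library. The log2 ratio was -1.25 (-1.29 to -1.22). A Ccl2 UMI was present in 894 of 1755 diabetic cells (50.9%) and 741 of 1123 non-diabetic cells (66.0%). When each cell was thinned to 2000 UMIs, leaving out 25 diabetic and 37 non-diabetic shallower cells, the shares were 26.2% and 41.5%. The lowest shares in any cluster of at least 20 cells were then 4.44% in diabetic Lpl-led cells (median depth 19197 UMIs before thinning) and 10% in non-diabetic Cd209a-led cells (19588 UMIs). These shares can include Ccl2 made by the cells themselves, and background from free RNA was not measured.

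The Inhba-led cells carried Ccl2 most strongly, at 2422 CPM in the non-diabetic library, and held 40.5% of its non-diabetic UMIs. Inhba encodes an activin subunit, and Il1a, Tnfrsf9 and Pdpn were also among the leading genes of this cluster. In the diabetic library Ccl2 was spread more evenly, and the largest holder, the Stfa3-led cluster, had 21.4% of the UMIs at 448 CPM. The next Ccl2 levels were 1257 CPM in diabetic and 1142 CPM in non-diabetic cells of the Ifit3-led cluster. The Acp5-led cells were lowest among diabetic clusters at 98.3 CPM. Within clusters the library difference did not have 1 direction: the log2 ratio was 0.68 in the Ly6c2 cluster (434 CPM in diabetic, 270 CPM in non-diabetic cells), 0.14 in the Ifit3-led, 0.41 in the Cd209a-led and -2.17 in the Lpl-led cluster. The positive value of the Ifit3-led cluster rested on 1 diabetic cell with 36.2% of the UMIs, and was -0.41 without the top cell of each library. With chemokine genes kept for the clustering the sign turned in both, to -0.25 in the Ifit3-led and -0.19 in the Cd209a-led cluster. Over the 4 shared clusters together the log2 ratio of Ccl2 was -0.51. This sum mixes levels with cell make-up, since the Ifit3-led cluster, with much Ccl2, held 38 diabetic and 201 non-diabetic cells.

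Ccl7, which lies next to Ccl2 and attracts monocytes through Ccr2 as well as through other receptors, had the same order of libraries with a smaller gap. It was counted at 139.8 CPM (135.6 to 144) in diabetic and 246 CPM (238 to 254) in non-diabetic cells, a log2 ratio of -0.81 (-0.88 to -0.75). Its UMIs were concentrated: 26 diabetic cells and 29 non-diabetic cells held 50% of them. In the Stfa3-led cluster, which had 30% of the diabetic UMIs at 219 CPM, only 39 of 303 cells had a Ccl7 UMI. Inhba-led cells were again highest at 572 CPM and held 37.3% of the non-diabetic UMIs. They were followed by the diabetic Ifit3-led cells at 476 CPM, with 57.2% of these UMIs in 1 cell, and by non-diabetic Osm-led cells at 388 CPM. After thinning, 9.48% of diabetic and 14.9% of non-diabetic cells had a Ccl7 UMI. The lowest clusters then had 2 of 135 diabetic cells (Ly6c2) and 0 of 120 non-diabetic cells (Cd209a-led), which allows a share of up to 2.5%. Levels were lowest in the Cd209a-led cells, at 10.9 CPM in diabetic and 6.78 CPM in non-diabetic cells.

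Most cells with a Ccl7 UMI also had a Ccl2 UMI, 339 of 385 in the diabetic (88.1%) and 262 of 287 in the non-diabetic library (91.3%), against 50.9% and 66.0% of all cells. Of the cells with a Ccl2 UMI, 37.9% of diabetic and 35.4% of non-diabetic ones had a Ccl7 UMI. Across cells the Spearman correlation of their CPM was 0.515 in 1755 diabetic and 0.493 in 1123 non-diabetic cells, which share library and depth effects. Their balance differed between clusters. Ccl7 made up 36.01% of the Ccl7 and Ccl2 UMIs in diabetic and 34.7% in non-diabetic Cd163-led cells, but 4.38% in diabetic and 8.68% in non-diabetic cells of the Ly6c2 cluster. The macrophage-like cluster therefore had more Ccl7 per Ccl2 than the classical monocyte-like cluster in both libraries.

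**Figure D2:**
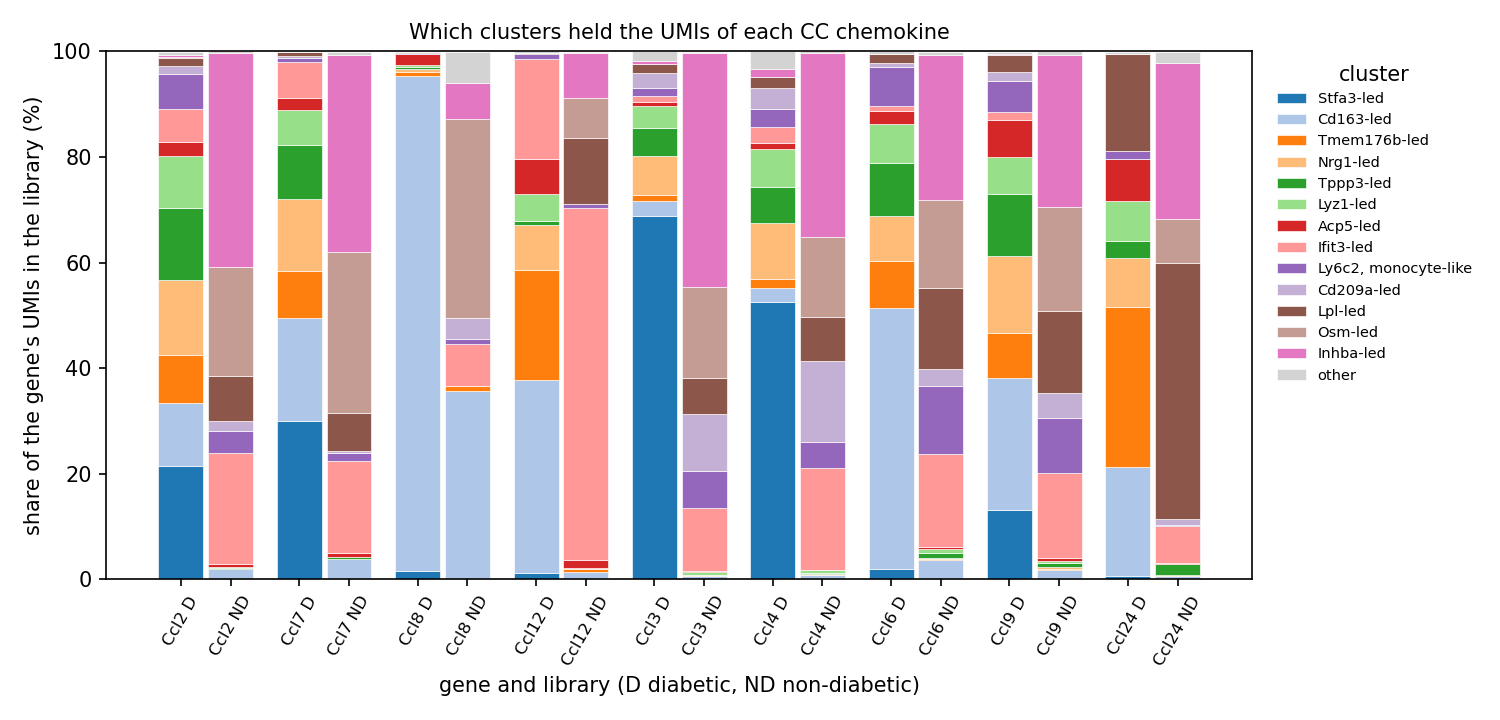
Share of each chemokine's UMIs in a library (percent, stacked to 100) by cluster, with the diabetic library (D) left of the non-diabetic library (ND) for each gene. The Cd163-led cluster fills 93.8% of the diabetic Ccl8 bar, the Stfa3-led cluster 68.8% of the diabetic Ccl3 bar, and the Ifit3-led cluster 66.7% of the non-diabetic Ccl12 bar.

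Ccl8 was the 1 member with at least 50% of its UMIs over both libraries in a single cluster, 90.2% in the Cd163-led, macrophage-like cluster. This sum is mostly diabetic, with 1523 diabetic and 101 non-diabetic UMIs. The Cd163-led cluster held 93.8% of the diabetic but 35.6% of the non-diabetic UMIs, and the Osm-led cluster 37.6% of the non-diabetic ones. The library levels were 50.04 CPM (47.6 to 52.6) in diabetic and 6.55 CPM (5.33 to 7.95) in non-diabetic cells, a log2 ratio of 2.93 (2.64 to 3.24) or 7.61-fold. Within the Cd163-led cluster the levels were 285 CPM in 232 diabetic cells, against 84.5 CPM in 28 non-diabetic cells. Cd163 encodes a haemoglobin scavenger receptor, and Folr2 and Gas6 were also among the leading genes of the cluster. At a finer clustering (resolution 2), 81.2% of the Ccl8 UMIs fell in a cluster of 87 diabetic and 18 non-diabetic cells led by Gas6 and Igf1, at 726 CPM in diabetic and 113 CPM in non-diabetic cells. Of those cells, 27 diabetic and 6 non-diabetic ones had a Ccl8 UMI.

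These Ccl8 sums came from very few cells. Only 93 of 1755 diabetic cells (5.30%) and 31 of 1123 non-diabetic cells (2.76%) had a Ccl8 UMI. Thinned shares were 1.68% and 0.737%, with 0 of 135 diabetic Ly6c2-cluster cells and 0 of 120 non-diabetic Cd209a-led cells, which allows shares of up to 2.22% and 2.5%. These limits rest on cluster size and do not measure background. The library shares lie below them, so as shares of cells they could not be compared with background. The 4 diabetic cells with most Ccl8 had 514, 158, 117 and 102 UMIs, all in the Cd163-led cluster, and 3 cells held 50% of the diabetic total. The 4 non-diabetic cells with most had 29, 25, 5 and 4. Leaving out the top cell of each library gave a log2 ratio of 2.82.

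The non-diabetic cell with 25 Ccl8 UMIs also carried 4391 UMIs of 7 fibroblast markers, 99.8% of those in the non-diabetic Cd163-led cells, and 19 UMIs of Ccl11, an eotaxin made by fibroblasts. Without the 4 cells that had at least 100 fibroblast marker UMIs (3 diabetic and 1 non-diabetic), Ccl8 stood at 285 CPM in diabetic and 31.3 CPM (11 UMIs) in non-diabetic Cd163-led cells, and the log2 ratio of the whole libraries was 3.34. The fibroblast marker sum was 21.2 CPM in diabetic and 10318 CPM in non-diabetic Cd163-led cells, and none of the 7 markers was at 0 in either. Macrophage markers as a list were higher in the diabetic library. Of 12, 6 were at least 2-fold higher and 1 at least 2-fold lower, against 8.56% and 6.54% of all measured genes. The part of this in the Ccl8 difference was not tested. Outside the Cd163-led cluster UMIs were few: over the 4 shared clusters together the log2 ratio was -0.38, and no shared cluster reached 20 Ccl8 UMIs.

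Ccl12, a mouse chemokine close to Ccl2 in function, was level between the library sums within counting error. It was counted at 31.0 CPM (29.1 to 33.1) in diabetic and 28.5 CPM (25.9 to 31.2) in non-diabetic cells, and the interval of the log2 ratio of 0.13 ran from -0.04 to 0.29. The cells that carried it were not the same. The Ifit3-led cluster held 66.7% of the non-diabetic UMIs but 19.0% of the diabetic ones, of which 36.5% were in the Cd163-led and 20.8% in the Tmem176b-led cluster. The Tmem176b-led cells had class II genes such as H2-Aa and Ciita among their leading genes. Ccl12 was highest in the Ifit3-led cluster in both libraries, at 296 CPM in 38 diabetic and 108 CPM in 201 non-diabetic cells. That log2 ratio was 1.46 (1.18 to 1.73), and 1.13 without the top cell of each library. In the same cluster 180 diabetic UMIs came from 22 cells and 293 non-diabetic UMIs from 48 cells.

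The summed level of 12 interferon response genes, several of which lead the Ifit3-led cluster, was 4413 CPM there, the highest of all clusters. All 12 were at least 2-fold lower in the diabetic library (median log2 ratio -2.30), against 6.54% of all measured genes. Among the most abundant of them were Ifi204 at 138.6 CPM in diabetic and 355 CPM in non-diabetic cells and Cxcl10 at 57.9 and 397 CPM. Ccl12 thus was most abundant in the interferon-led cluster while its library sum did not follow the interferon list. No Ccl12 UMI was counted in the Cd209a-led cells of either library, where 184 diabetic and 273 non-diabetic Ccl2 UMIs were found; the exact upper bounds for Ccl12 were 3.08 and 1.56 CPM. Thinned shares of cells with a Ccl12 UMI were 2.95% in diabetic and 3.41% in non-diabetic cells, with intervals that overlap (2.20 to 3.86 and 2.41 to 4.67). Relative to Ccl2, Ccl12 made up 19.0% of the paired UMIs in diabetic Cd163-led cells and 2.17% in non-diabetic ones, and 0.420% in diabetic Stfa3-led cells. The non-diabetic Cd163-led share rested on 6 Ccl12 and 271 Ccl2 UMIs. Of these Ccl2 UMIs, 83 came from the fibroblast marker-bearing cell, which had 0 Ccl12 UMIs.

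Ccl3 and Ccl4, which macrophages make quickly on activation, are neighbours that differed in their library ratios. Ccl3 was counted at 1581 CPM (1567 to 1595) in diabetic and 1383 CPM (1364 to 1401) in non-diabetic cells, a log2 ratio of 0.19 (0.17 to 0.22). Ccl4 was at 1117 CPM (1105 to 1129) in diabetic and 2275 CPM (2251 to 2299) in non-diabetic cells, a log2 ratio of -1.03 (-1.048 to -1.005). With DESeq2 size factors these became 0.07 and -1.15. A Ccl3 UMI was present in 69.1% of diabetic and 80.9% of non-diabetic cells, an order opposite to the CPM from which nothing is read. For Ccl4 the shares were 59.4% and 78.5%, and 38.6% and 57% after thinning, when the lowest clusters had 13.2% (diabetic Acp5-led cells, median depth 16234 UMIs before thinning) and 27.8% (non-diabetic Gm42418-led cells, 4994 UMIs).

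In the diabetic library the Stfa3-led cluster held 68.8% of the Ccl3 UMIs, at 5684 CPM, and 52.4% of the Ccl4 UMIs, at 3060 CPM. A Ccl3 UMI was present in 297 and a Ccl4 UMI in 248 of its 303 cells. Other leading genes of this cluster were Lcn2, S100a8, Fst, Csf3 and Nos2. Without it, the log2 ratios of the libraries were -1.18 for Ccl3 and -1.79 for Ccl4, so the near equality of Ccl3 in the sums was reached with these cells. In the non-diabetic library the Inhba-led cells were the largest holders, with 44.4% of the Ccl3 UMIs at 3827 CPM and 34.9% of the Ccl4 UMIs at 4953 CPM. Leaving out the Inhba-led cells gave a log2 ratio of 0.78 for Ccl3 and -0.68 for Ccl4. Both genes were lowest in diabetic Acp5-led cells, at 103 and 121 CPM.

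The Stfa3-led cells also held neutrophil transcripts. Of 10 neutrophil markers, 3 (S100a8, S100a9 and Mmp8) met the rule for a raised marker, the list summed to 19129 CPM, and Ly6g, which defines mouse neutrophils, was at 0, though the neutrophil-like cells themselves had only 5 Ly6g UMIs. S100a8 alone made up 17407 CPM of that sum. Mmp8 was slightly higher in Stfa3-led than in neutrophil-like cells, at 786 against 720 CPM, and S100a8 was at 17407 against 27761 CPM. S100a9 was at 752 against 41201 CPM, Csf3r at 70.2 against 624 CPM and Trem1 at 104 against 815 CPM. Retnlg was at 6.52 CPM in Stfa3-led cells, against 4060 CPM in neutrophil-like cells, and G0s2 at 1.03 against 3908 CPM. Cxcr2 was at 0.515 against 433 CPM and Hdc at 1.20 against 1068 CPM. The sum was 146 to 1431 CPM in the other diabetic clusters of at least 20 cells, and 53.4 to 1100 CPM in the non-diabetic ones. In the 16 neutrophil-like cells led by Retnlg, the sum was 80619 CPM with none of the 10 at 0, Ccl3 was at 4875 CPM and Ccl4 at 6433 CPM. The part of neutrophil RNA in the Ccl3 level of the Stfa3-led cells was not tested.

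Ccl3 made up 65.0% (64.6 to 65.4) of the Ccl3 and Ccl4 UMIs in Stfa3-led cells and 43.1% (40.9 to 45.3) in neutrophil-like cells. In whole libraries the share was 58.6% in diabetic and 37.8% in non-diabetic cells. Within the Cd163-led cluster it was 58.7% in diabetic and 30.9% in non-diabetic cells, in the Cd209a-led 51.0% and 29.98%, in the Lpl-led 52.4% and 33.0%, and in the Ifit3-led 33.6% and 27.3%. The Ly6c2 cluster went the other way, with 39.0% in diabetic and 46.4% in non-diabetic cells. The share of Ccl3 was thus higher in diabetic cells in 4 of these 5 clusters. Single cells weighed on these values: 1 cell held 26.8% of the diabetic and 1 cell 30.7% of the non-diabetic Ccl3 UMIs of the Cd209a-led cluster.

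**Figure D3:**
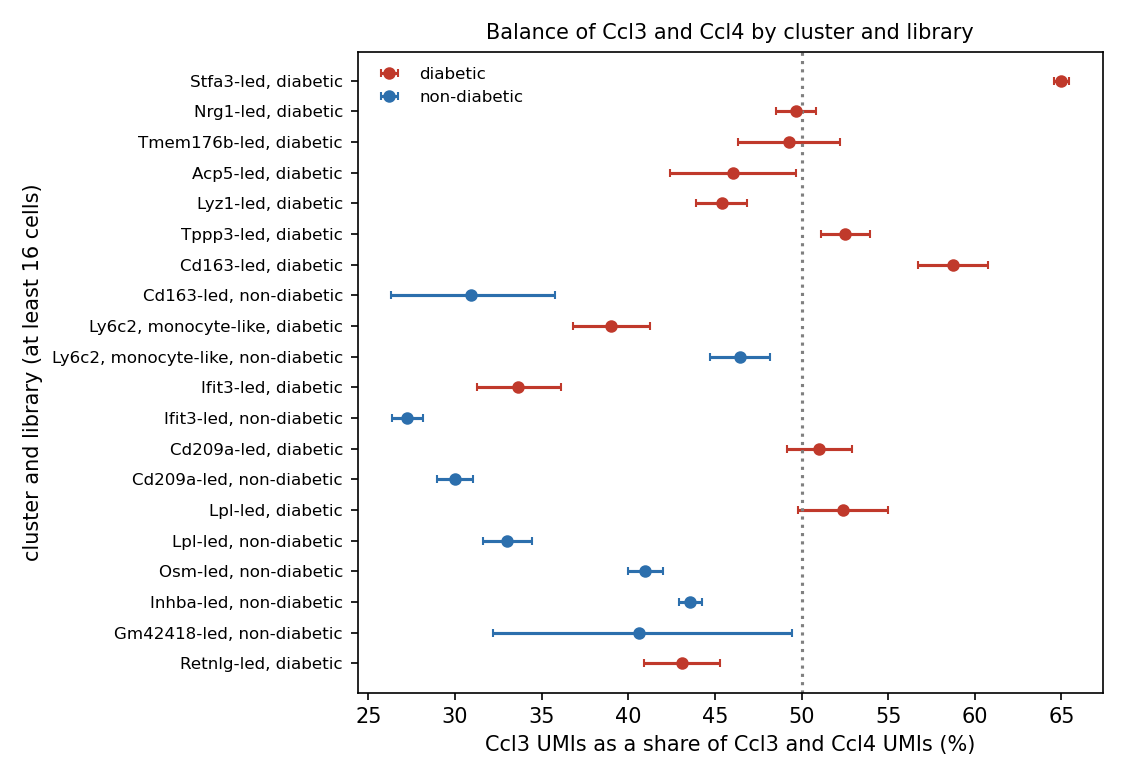
Ccl3 UMIs as a percent of Ccl3 and Ccl4 UMIs for each cluster and library with at least 16 cells, with Clopper-Pearson intervals; diabetic points are red and stand above non-diabetic blue points of the same cluster, and the dotted line is 50%. Stfa3-led diabetic cells reach 65.0%, and all 8 non-diabetic points lie below 50%.

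Ccl6 and Ccl9, Ccr1 ligands made by mouse myeloid cells, were lower in the diabetic library by nearly the same ratio. Ccl6 was counted at 898 CPM (887 to 909) in diabetic and 1810 CPM (1789 to 1831) in non-diabetic cells, a log2 ratio of -1.01 (-1.04 to -0.99). For Ccl9 the levels were 698 CPM (688 to 707) in diabetic and 1507 CPM (1488 to 1527) in non-diabetic cells, a log2 ratio of -1.11 (-1.14 to -1.08). Both were widespread: a Ccl9 UMI was present in 89.0% of diabetic and 95.7% of non-diabetic cells, and in 59.1% and 79.8% after thinning. The lowest thinned Ccl9 shares were 38.5% of diabetic and 55% of non-diabetic Cd209a-led cells. Ccl9 varied least between clusters of all members, 6.52-fold from lowest to highest, while Ccl6 varied 33.7-fold.

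The Cd163-led cells were the main diabetic holders of both, with 49.4% of the Ccl6 UMIs at 2694 CPM and 25.1% of the Ccl9 UMIs at 1065 CPM. Non-diabetic cells of that cluster had 2334 CPM of Ccl6 and 974 CPM of Ccl9, so the libraries were close there. Without the fibroblast marker-bearing cell the non-diabetic values were 2832 and 1181 CPM. In the non-diabetic library, Inhba-led cells were highest, with 3104 CPM of Ccl6 and 2714 CPM of Ccl9. The Stfa3-led cells, which were highest for Ccl3, were lowest for Ccl6 at 90.6 CPM, while their Ccl9 was at 474 CPM. Ccl9 made up 83.9% of the Ccl9 and Ccl6 UMIs in Stfa3-led cells, against 28.3% in diabetic and 29.4% in non-diabetic Cd163-led cells.

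Both genes were lower in diabetic cells in all 4 shared clusters. The log2 ratio of Ccl6 was -0.60 in the Ly6c2, -1.97 in the Ifit3-led, -0.95 in the Cd209a-led and -2.65 in the Lpl-led cluster, and that of Ccl9 -0.76, -1.30, -0.56 and -1.76. In the Ly6c2 cluster, where libraries were nearly equal in cell number, Ccl6 was at 1044 CPM in diabetic and 1586 CPM in non-diabetic cells. Across cells the Spearman correlation of Ccl3 with Ccl4 was 0.651 in the diabetic and 0.598 in the non-diabetic library. The lowest correlation of any pair was -0.216, between Ccl3 and Ccl6 in diabetic cells.

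**Figure D4:**
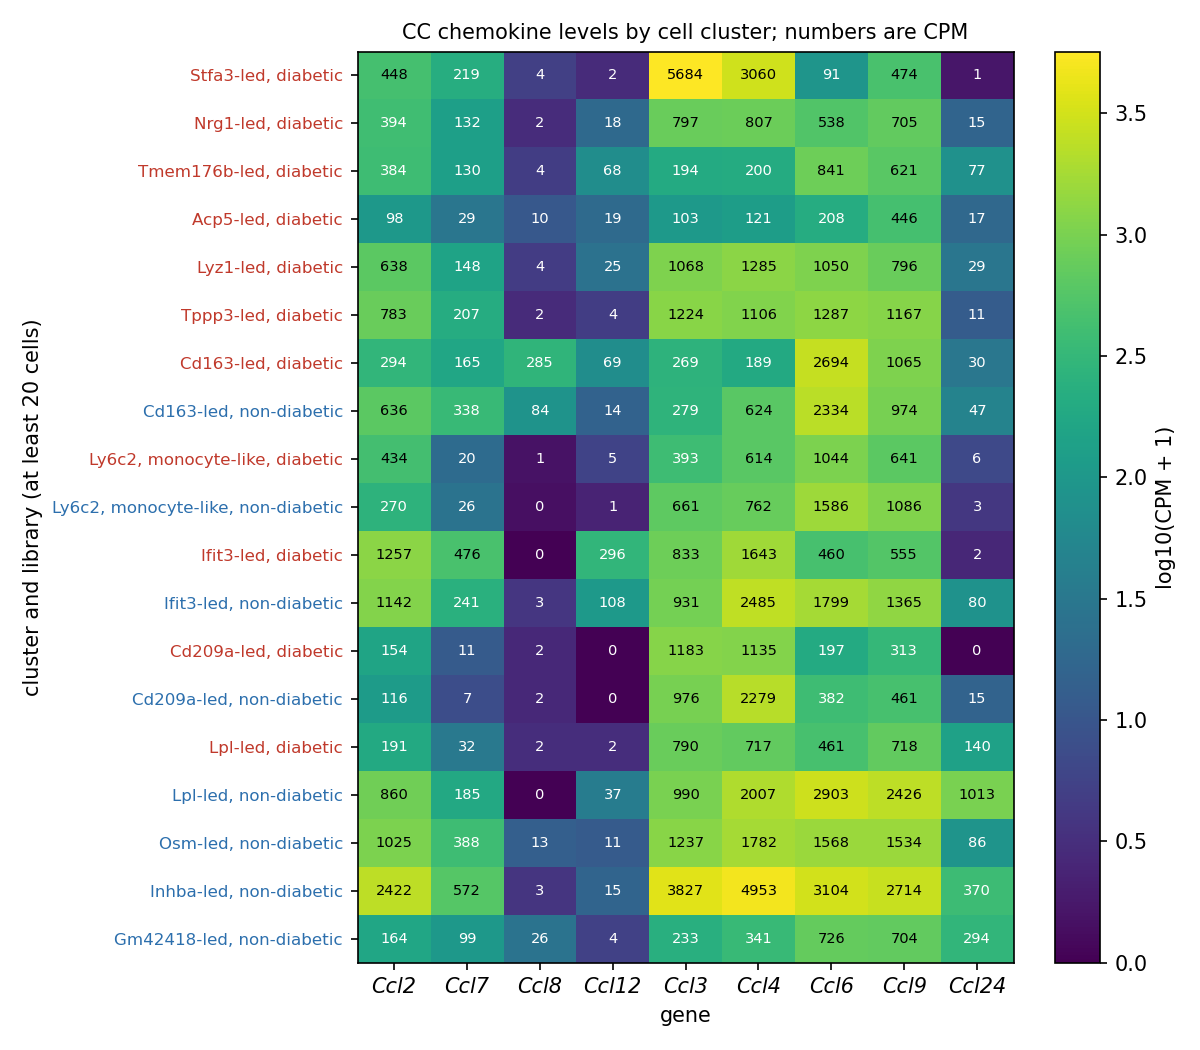
Level of each chemokine in CPM (printed in each cell of the map, colour on a log10 scale) for every cluster and library with at least 20 cells, diabetic rows in red above non-diabetic rows in blue. Stfa3-led diabetic cells combine 5684 CPM of Ccl3 with 90.6 CPM of Ccl6, and Lpl-led non-diabetic cells stand out for Ccl24 at 1013 CPM.

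Ccl24, the eotaxin of alternatively activated macrophages, was the member with the lowest library ratio. Its difference was about as large as that of Ccl8 in the other direction, and which of them was larger changed with the cells included. It was counted at 24.1 CPM (22.4 to 25.9) in diabetic and 201 CPM (194 to 208) in non-diabetic cells, 8.33-fold lower (7.68 to 9.04), a log2 ratio of -3.06. A lower ratio was found for 0.746% of all measured genes. A Ccl24 UMI was present in 192 diabetic cells (10.9%) and 272 non-diabetic cells (24.2%), and after thinning in 2.72% and 12.4%. Thinned cells of the Stfa3-led cluster had 0 in 300, which allows up to 1%, and those of the non-diabetic Ly6c2 cluster 1 in 148. Under other cell filters, scalings and weights the log2 ratio lay between -3.37 and -2.67.

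Lpl-led cells were the strongest carriers. Their leading genes included lipoprotein lipase itself, Axl, Itgax and Cd36, and they held 48.6% of the non-diabetic Ccl24 UMIs at 1013 CPM, followed by Inhba-led cells with 29.6% at 370 CPM. Diabetic Lpl-led cells had 139.6 CPM, from 10 cells with a UMI of 48, and 1 cell held 48.1% of these UMIs. The largest diabetic holder was the Tmem176b-led cluster, with 30.4% of the UMIs at 77.4 CPM. In the Ifit3-led cluster 1 diabetic and 217 non-diabetic UMIs were counted, a log2 ratio of -5.02 with an interval from -10.91 to -3.11. When chemokine genes were kept for the clustering it was -1.82, outside that interval. In the Cd209a-led cluster there were 0 diabetic and 35 non-diabetic UMIs, at least 5.91-fold lower if 3 counts are allowed for the 0, but 91.4% of the non-diabetic UMIs came from 1 cell. The Ly6c2 cluster had 11 diabetic and 7 non-diabetic UMIs, too few to compare.

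Among the 4 shared clusters, the Lpl-led cells had the most chemokines past 2-fold. At the finer clustering (resolution 2) the Lpl-led cluster with most Ccl24 held 2 diabetic and 85 non-diabetic cells, so few diabetic cells were grouped with it there. At resolution 1 the Lpl-led cluster held 48 diabetic and 101 non-diabetic cells, and 8 members had at least 20 UMIs in it. Of these, 7 were at least 2-fold lower in diabetic cells and none higher, against 7.37% and 11.3% of all genes measured in the cluster. The median log2 ratio was -2.34 over the 8 members and 0.06 over all measured genes. Ccl2 was at 191 CPM in diabetic and 860 CPM in non-diabetic Lpl-led cells, Ccl6 at 461 and 2903 CPM, and Ccl9 at 718 and 2426 CPM. Ccl3 was the exception, at 790 CPM in diabetic and 990 CPM in non-diabetic cells (log2 ratio -0.32). The 48 diabetic cells included 2 with at least 100 fibroblast marker UMIs, 1 of them the deepest cell of the library with 150039 UMIs and 1 chemokine UMI among the 9 genes. The fibroblast sum was 1063 CPM in diabetic cells, with 2 of 7 markers at 0, and 12.8 CPM in non-diabetic cells, with 3 at 0. The 5 endothelial markers summed to 772 CPM in diabetic cells (52.9% of it from 1 cell, none at 0), against 35.7 CPM in non-diabetic cells (1 at 0). The 10 neutrophil markers summed to 713 CPM (4 at 0), against 114 CPM (3 at 0). The part of these in the chemokine difference was not tested. Without the 2 cells the log2 ratios were -1.84 for Ccl2, -2.17 for Ccl7, -1.16 for Ccl4, -2.32 for Ccl6, -1.43 for Ccl9, -2.53 for Ccl24 and 0.005 for Ccl3, so 7 of 8 were still at least 2-fold lower with Ccl12 at -3.52 (2 diabetic UMIs). Single cells also weighed on the diabetic levels here, since 1 cell held 62.7% of the Ccl2 and 1 cell 87.1% of the Ccl7 UMIs. Without the top cell of each library the ratios were lower still, at -3.33 for Ccl2 and -4.98 for Ccl7. Macrophage markers summed to 4546 CPM in diabetic and 5013 CPM in non-diabetic Lpl-led cells.

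In the Ifit3-led cluster 3 of 8 measured members were at least 2-fold lower in diabetic cells (Ccl6, Ccl9 and Ccl24) and 1 higher (Ccl12), against 7.21% and 5.74% of all genes there. In the Cd209a-led cluster 2 of 7 were lower (Ccl4 and Ccl24) and none higher, against 5.73% and 3.61%. Ccl6 (-0.95) passed 2-fold there, at -1.19, with chemokine genes kept for the clustering. Ccl4 was at 1135 CPM in diabetic and 2279 CPM in non-diabetic dendritic cell-like cells, at the 2-fold limit. In the Ly6c2 cluster none of 6 passed 2-fold in either direction, against 4.14% lower and 3.76% higher, and the largest differences were -0.76 for Ccl9 and -0.75 for Ccl3. The classical monocyte-like cells thus differed less between libraries in chemokine levels than the Lpl-led cells did, as a description of these 2 libraries.

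**Figure D5:**
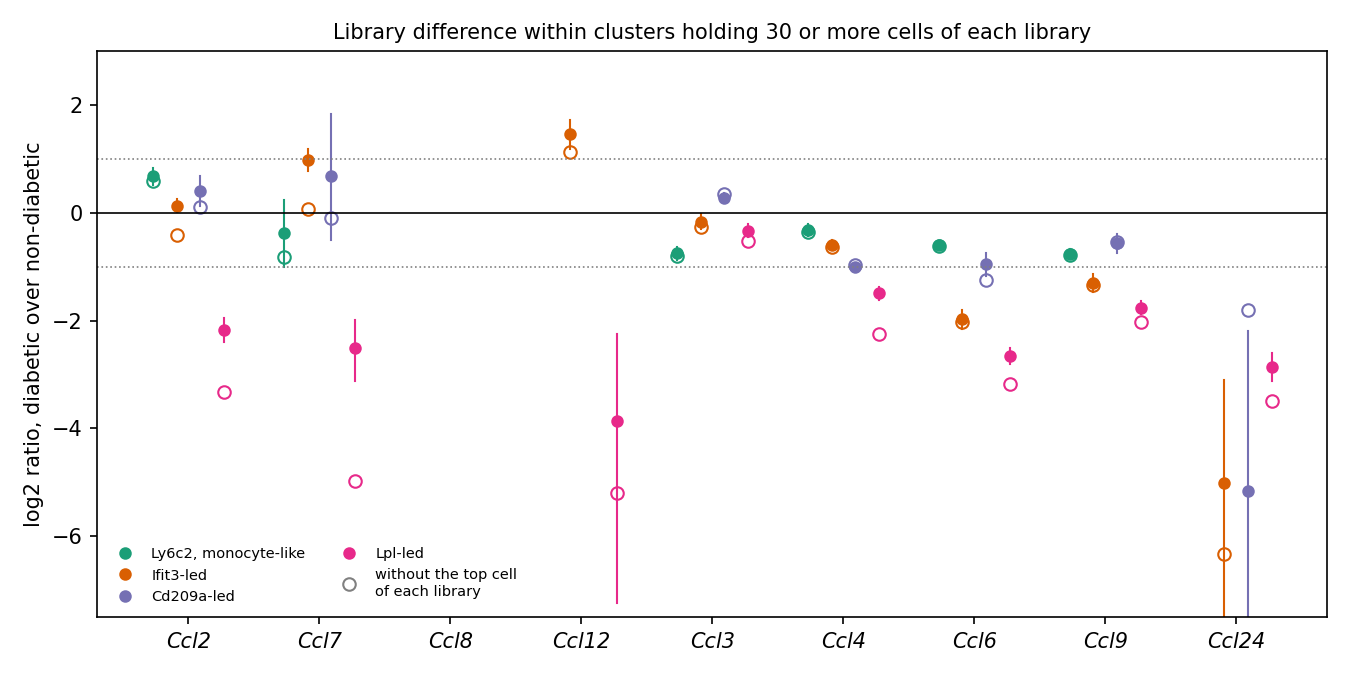
Log2 ratio of each chemokine, diabetic over non-diabetic, within the 4 shared clusters (filled points, lines are exact counting intervals), and without the top cell of each library (open points); members with under 20 UMIs are left out and dotted lines mark 2-fold. Lpl-led points lie lowest for Ccl2, Ccl7, Ccl12, Ccl4, Ccl6 and Ccl9, and the Ifit3-led point of Ccl12 is the 1 filled point above the upper dotted line; the Cd209a-led point of Ccl24 rests on 0 diabetic UMIs, so its place depends on the 0.5 added.

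The genes whose levels followed each member most closely were sought over 19 sums of at least 20 cells (a cluster in a library), among 6686 genes with at least 500 UMIs and no chemokine. The sums share libraries and depth, so Pearson's r of log2(CPM + 10) is a description. Among members the closest pairs were Ccl3 with Ccl4 (r = 0.907), Ccl6 with Ccl9 (0.860) and Ccl2 with Ccl7 (0.842), each of them neighbours in the genome. Ccl12 and Ccl8, also neighbours, had r = 0.148. Ccl8 was followed most closely by Tmem8 (0.936), Gas6 (0.919), which encodes a ligand of the TAM receptors, and Zdhhc14 (0.908). Ccl3 was closest to Chd1 (0.890), Il1b (0.842) and Dusp16 (0.838), and Ccl4 to Samsn1 (0.848) and Zc3hav1 (0.820). Ccl2 was closest to Parp10 (0.817), Nod2 (0.809) and Vps54 (0.806), and Ccl7 to Slc7a8 (0.839), Tbk1 (0.838) and Itgam (0.820). Ccl12 was closest to Akap7 (0.836), Rin2 (0.829) and Pml (0.822), Ccl6 to Mospd2 (0.809), Arhgef10l (0.790) and Eps8 (0.768). Ccl9 was closest to Rbpj (0.858), Zeb2 (0.850) and Hyou1 (0.845), and Ccl24 to Zfp407 (0.822), Slc16a10 (0.740) and Mitf (0.737).

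Of 12 other CC chemokines listed, 6 had at least 20 UMIs. Of these, 4 were at least 2-fold lower in diabetic cells and none higher, against 6.54% and 8.56% of all measured genes. Ccl5 was at 10.8 CPM in diabetic and 31.0 CPM in non-diabetic cells, Ccl17 at 0.657 and 20.4 CPM, and Ccl22 at 0.131 and 25.5 CPM. Ccl17 and Ccl22, ligands of Ccr4, were almost all in the dendritic cell-like Cd209a-led cluster, with 316 of 334 and 390 of 397 UMIs. Ccl11 was the fourth, at 4 diabetic and 23 non-diabetic UMIs, with 19 non-diabetic UMIs in the fibroblast marker-bearing cell. Ccl25 was level at 7.23 and 7.26 CPM. The symbols of 2 listed genes were not matched to a single entry.

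Of 15 chemokine receptors, 7 were measured. At least 2-fold lower in diabetic cells were 3 of them, against 6.54% of all measured genes. These were Ccrl2, Ccr7 and Ccr9, named after their values were seen. Among receptors of the members, Ccr1 and Ccr2 were nearer to equal. Ccr2 was at 461 CPM in diabetic and 862 CPM in non-diabetic cells (log2 ratio -0.90) and Ccr1 at 259.5 and 372 CPM (-0.52). Ccr8, the receptor of Ccl8, had 0 UMIs in both libraries, and Ccr3, the receptor of Ccl24, had 14 diabetic and 3 non-diabetic UMIs. Ccr2 was highest in the Ifit3-led cluster, as was its ligand gene Ccl12, but Ccl2 and Ccl7 were highest in Inhba-led cells. Ccr2 was at 1239 CPM in the Ifit3-led, 1139 CPM in the Lyz1-led and 1056 CPM in the Tmem176b-led cluster, but at 335 CPM in the Inhba-led cells, where Ccl2 was highest, and at 26.6 CPM in Stfa3-led cells. Ccr1 was at 549 CPM in the Inhba-led cells, which were highest in Ccl9, and above that only in the neutrophil-like cells at 630 CPM.

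The lists of activation genes all had a median log2 ratio below 0, with single members above it. Of 12 genes induced by or feeding back on NF-kappaB, 2 were at least 2-fold lower in diabetic cells (Nfkbia and Tnf) and 1 higher (Sod2). Of all measured genes 6.54% were lower and 8.56% higher by that much, and from such small counts nothing is read. Tnf and Sod2 were named after their values were seen, and the median log2 ratio of the list was -0.52. Cxcl2 was at 11500 CPM in diabetic and 19458 CPM in non-diabetic cells and Il1b at 4663 and 5455 CPM. The list summed to 89514 CPM in the Inhba-led cluster, the highest of all clusters, 67275 CPM in the neutrophil-like cells, 50346 CPM in the Osm-led and 49045 CPM in the Stfa3-led cluster, and to 1705 CPM in the Tmem176b-led cluster. Of 10 alternative activation genes, 4 were at least 2-fold lower and 1 higher in diabetic cells, against 6.54% and 8.56% of all measured genes. Arg1 was at 1881 CPM in diabetic and 2478 CPM in non-diabetic cells, Chil3 at 404 and 1389 CPM and Mrc1 at 340 and 165 CPM. None of 14 immediate early and heat shock genes, which digestion of tissue can also raise, passed 2-fold, against 6.54% lower and 8.56% higher of all measured genes. Of these 14 genes, 12 were below 0 with a median log2 ratio of -0.52. Their part, and that of the NF-kappaB list, in the chemokine differences was not tested.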

How the data were processed

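Per the labels' protocols, cells were processed on the 10x Chromium 3′ platform. The authors deposited whole-number UMI counts for each gene in each barcode, made with Cell Ranger 3.0.2 per the file headers, on build mm10, per the submitters' processing notes. Which gene annotation was used is not given in the sources used here. Kept cells were clustered jointly (scanpy 1.11.5, leidenalg 0.10.2, 2000 variable genes chosen within libraries, 30 components, 15 neighbours, resolution 1, no batch correction). An "X-like" name needed at least 3 markers and 50% of a marker set at 2-fold and in 10% of cells, a scoring rule set after the data were seen. Scrublet marked 4 diabetic and 2 non-diabetic cells, which were kept, so doublets may remain. Counts were summed per library, or per library and cluster, and divided by that sum to give CPM. Ratios had 0.5 added to both counts. Intervals are exact Poisson for CPM, Clopper-Pearson for shares and conditional exact binomial for ratios, all treating UMIs as independent. The ratio calculation was tested on simulated data. Entries sharing a symbol (71) were not matched. The members and lists were chosen with earlier results of these data known. All members are named. For likeness, the 3 closest genes were named, apart from items that are not reported here, and from each list up to 4 genes with most UMIs, besides cluster-leading genes and receptors of the members. Motifs were searched on both strands. Transcripts were compared with BLAST 2.17.0 against GENCODE M21, and promoters aligned with Biopython 1.88. Alternative scalings used edgeR 4.0.16 and DESeq2 1.42.0, and other alternatives covered cell filters, doublets, cell weights, depth and clustering.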

Additional observations from a re-analysis of the deposited data

How the results depend on the processing

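No replicate could be left out with 1 library per group. No paired analysis was possible because the groups share only 1 replicate number and hold 1 library each. The count of 5 members at least 2-fold lower in diabetic cells stayed at 5 under a stricter cell filter, doublet removal, scalings, weights, thinning and count minimum, but the members changed: Ccl4 left and Ccl7 entered with equal cell weights (-0.89 and -1.15) and with thinning (-0.84 and -1.18). It was 3 with all deposited barcodes, where Ccl4 (-0.94) and Ccl6 (-0.94) passed out of it. Under alternatives chosen after seeing the data it was 1 without the Inhba-led cluster, 6 without the Stfa3-led cluster (Ccl3 and Ccl7 entered, Ccl6 left at -0.73) and 4 over the 4 shared clusters, and 0 members were 2-fold higher over these, where Ccl8 reversed to -0.38 on few UMIs. The all-gene counts of 807 lower and 1056 higher became 465 and 527 after thinning, 2450 and 2212 with no count minimum, and 423 lower over the shared clusters. Fewer UMIs or more genes entered these by construction. With equal weight per cell, 2 members had at least 50% in 1 cluster, Ccl24 (51.7%) beside Ccl8 (78.9%). Ccl12 ran from -0.43 (thinned) to 0.26 (stricter cell filter) over other cell filters, scalings and weights.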
